A study of Oryza sativa with 2 samples.

Results

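The 6 genes described here are rice markers of abscisic acid action and of dehydration, namely the dehydrin genes RAB16B, RAB16C, RAB16D and Dhn1, the salt-induced lectin gene salT, and CYP707A5, which encodes an enzyme of abscisic acid breakdown. They were picked with earlier results of these data known. They were matched by name, as the genes whose symbol or synonym is one of these, with or without a leading Os. Each was read by 1 probe, so there were 6 probes for 6 of the 15798 genes that had a probe listing 1 gene, and 22574 probes had a value on both arrays.

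The irradiated group was whole rice (Oryza sativa) seedlings, grown for 7 days in a growth chamber in MS medium (a standard plant culture medium) and then exposed to carbon ion beams for 2 h 35 min. The control group was healthy seedlings grown the same way and not irradiated. Carbon ions are heavy charged particles that deposit energy densely along their track, and the beam came from HIMAC, a medical heavy-ion accelerator. The sources used here do not give the cultivar, the dose, the time between exposure and harvest, or the number of seedlings pooled. An irradiated and a control RNA sample were hybridised together on each of 2 two-colour oligonucleotide arrays, with irradiated RNA in Cy5 on the first and in Cy3 on the other, here called the Cy5 array and the Cy3 array after the dye of the irradiated RNA. Both arrays carry the same replicate number, so they were counted as a dye swap of 1 pair of extracts, 1 replicate per group. No value below therefore has a test or a replicate error, and the difference between the arrays shows technical error only.

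Abscisic acid is the plant hormone that builds up when water is short. It binds soluble receptors that then block a group of protein phosphatases 2C, which frees SnRK2 kinases to activate bZIP transcription factors at abscisic acid response elements. Genes under such elements include those for dehydrins, very hydrophilic proteins that accumulate in ripening seeds and in drying or salt-stressed leaves and roots, and the hormone is removed mainly by the CYP707A family of cytochrome P450 enzymes. For 1 pair of extracts, the comparison gives the ratios of these transcripts between irradiated and control seedlings.

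Among the 6 markers only CYP707A5 stood at least 2-fold higher in irradiated seedlings on both arrays, with a mean of 2.88-fold. That call depended on the centring and was lost with median centring, where CYP707A5 stood at 0.50 on the Cy3 array. The 4 dehydrin genes lay close to the control level, with means between 1.04-fold and 1.18-fold, except that RAB16C depended on how spot brightness was recovered. The lectin gene salT had a mean of 0.69-fold, but that rested on the Cy3 array, and the arrays disagreed on it. Of the 6 markers 1 was therefore past 2-fold in the higher direction and 0 in the lower. For comparison, 1.9% of all 22574 probes reached 2-fold higher and 0.332% reached 2-fold lower. Ratios are irradiated over control on the log2 scale, after removal of a trend with spot brightness, and their direction is likely rather than certain, because the deposited values were read as Cy5 over Cy3. Which gene a spot is named for rests on a probe numbering that was inferred from these values and is not stated by a source used here. With the annotation numbers taken as listed, the spot named CYP707A5 is another one, with a mean of 0.12, and 0 of the 6 markers pass 2-fold. Whole seedlings were used, so fewer cells of a type and less RNA per cell cannot be told apart.

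**Figure D1:**
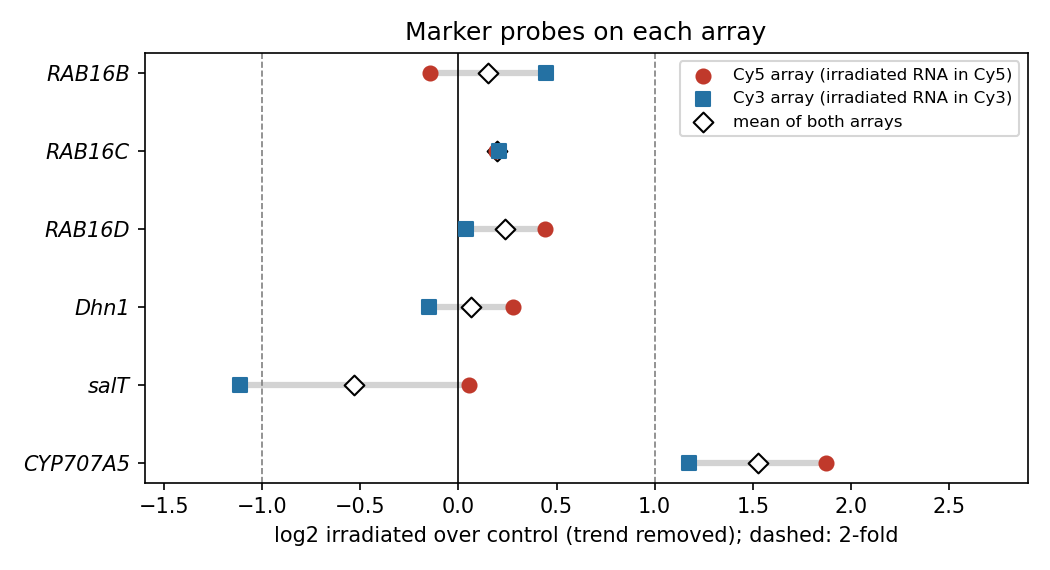
Each row is 1 marker gene, and the horizontal axis gives its log2 ratio of irradiated over control after trend removal. Circles are the Cy5 array, squares the Cy3 array, open diamonds their mean, and dashed lines mark 2-fold. CYP707A5 lies above 2-fold on both arrays, the dehydrin genes lie between -0.15 and 0.45, and salT lies at 0.05 and -1.11.

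The RAB16 genes take their name from their responsiveness to abscisic acid and form a tandem cluster. In the gene table of RefSeq (assembly ASM3414082v1), from which names and order alone were taken, RAB16D and RAB16C were adjacent, and a long non-coding RNA gene and a pseudogene lay between RAB16C and RAB16B. RAB21, the remaining gene of the cluster, followed RAB16B directly, and no listed probe read it. RAB16D, a dehydrin gene, stood at 0.44 on the Cy5 array and 0.04 on the Cy3 array, a mean of 0.24. RAB16C, its neighbour, stood at 0.19 and 0.20, a mean of 0.20. RAB16B stood at -0.15 and 0.45, a mean of 0.15, and was the RAB16 gene on which the arrays gave opposite signs. Genes of a tandem family can share sequence, and whether these probes tell them apart was not tested.

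Dhn1, also listed as LIP9, is a dehydrin gene that responds to drought and cold in rice. It stood at 0.28 on the Cy5 array and -0.15 on the Cy3 array, a mean of 0.06, the value nearest to 0 among the markers. The median of the 4 dehydrin means was 0.17, or 1.13-fold, where the median over all probes was -0.01. For 3 of these 4 genes the mean was smaller than the SD of its 2 arrays, which ran from 0.01 for RAB16C to 0.42 for RAB16B. The dehydrin genes could thus not be ordered among themselves. RAB16C, where the arrays differed least, moved with the centring, to -0.03 with the median alone in place of the trend. It moved further, to 0.84, with the trend fitted on reduced fractions, that is without restoring common factors to the recovered channel terms, where it stood at 1.49 on the Cy5 array and 0.19 on the Cy3 array.

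The deposited ratios show how much of each value was removed as dye trend. For Dhn1 the deposited ratio was 2213 over 786, or 2.82, on the Cy5 array and 3473 over 833, or 4.17, on the Cy3 array. For RAB16D it was 3.10 and 3.61, for RAB16C 1.83 and 2.69, and for RAB16B 1.42 and 2.02. All 4 genes were thus brighter in Cy5 on both arrays, although the irradiated RNA was in Cy5 on only one of them, and bright probes in general behaved in this way. The fitted trend at the spot of Dhn1 was 0.37 log10 units on the Cy5 array and 0.57 on the Cy3 array, against deposited values of 0.45 and 0.62. When arrays were centred on their medians with no trend removed, Dhn1 stood at 1.32 and -1.39 and RAB16D at 1.46 and -1.18. These values exceed 2-fold in opposite directions on the arrays, and their means were -0.03 and 0.14.

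**Figure D2:**
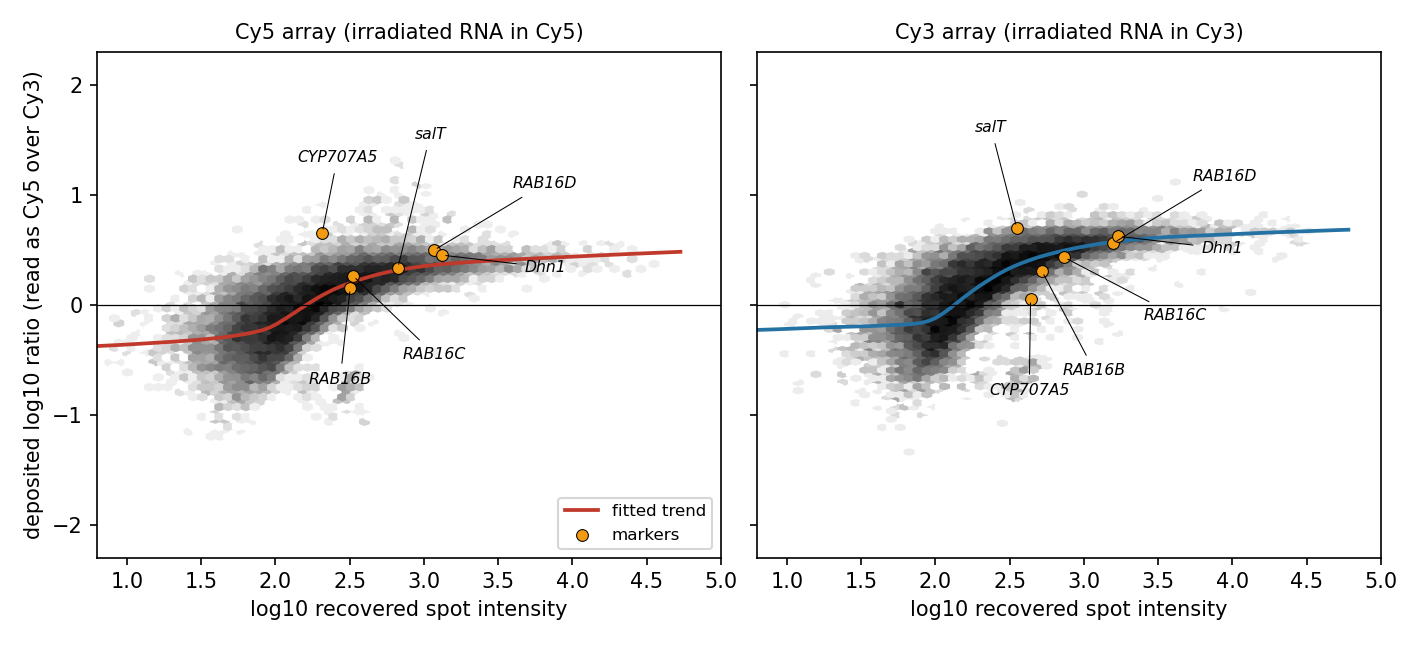
Each panel plots, for 1 array, the deposited log10 ratio, read as Cy5 over Cy3, against the log10 spot intensity recovered from the values; grey shading counts all probes on a log scale, the line is the fitted trend and orange points are the markers. The dehydrin genes lie close to the line on both arrays, while CYP707A5 lies above it where irradiated RNA was in Cy5 and below it where irradiated RNA was in Cy3.

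The gene salT encodes a mannose-binding lectin of the jacalin family, first known as a transcript induced by salt and drought in rice sheaths and roots. Its deposited ratio was 975 over 457, or 2.13, on the Cy5 array and 262 over 53, or 4.94, on the Cy3 array. After trend removal it stood at 0.05 on the Cy5 array and at -1.11 on the Cy3 array, a mean of -0.53 with an SD of 0.82 over the arrays. It was thus 2.16-fold lower in irradiated seedlings on 1 array and 1.04-fold higher on the other. On the Cy3 array alone 8.06% of all probes were at least 2-fold lower. The mean of salT lay at percentile 4.61 of the 2257 probes in its brightness decile, counting deciles from dim to bright, and at percentile 9.68 of all probes. It stayed below 0 under all 6 ways of centring the arrays, between -0.26 and -1.23, and was never 2-fold lower on both.

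CYP707A5, also listed as ABA8OX1, encodes an abscisic acid hydroxylase, which starts the main route of breakdown of the hormone. In Arabidopsis, genes of this family are induced by abscisic acid itself and when dried plants are watered again. The deposited ratio of its spot was 218 over 49, or 4.45, on the Cy5 array and 465 over 412, or 1.13, on the Cy3 array. Where the dehydrin genes kept a clear Cy5 excess on the Cy3 array, CYP707A5 was thus close to equal in the dyes. After trend removal it stood at 1.87, or 3.67-fold, on the Cy5 array and at 1.18, or 2.26-fold, on the Cy3 array. The mean of 1.53 lay at percentile 98.6 of all probes and at percentile 98.5 of the 2258 probes of its decile, and its arrays had an SD of 0.49. In that decile, the seventh from the dim end, 2.17% of probes reached 2-fold higher on both arrays and 0.354% reached 2-fold lower.

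The 2-fold call of CYP707A5 depended on the centring. With the arrays centred on their medians alone it stood at 1.98 and 0.50, a mean of 1.24, and the Cy3 array no longer reached 2-fold, and with scaling as well the mean was 1.30 and the call was also lost. With median centring 1.14% of all probes reached 2-fold higher and 0.12% reached 2-fold lower. Under the other 4 ways of centring, all with a trend, it was 2-fold higher on both arrays. Its mean ran from 1.24 to 1.94 over the 6, and was the highest of the markers under each of them.

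**Figure D3:**
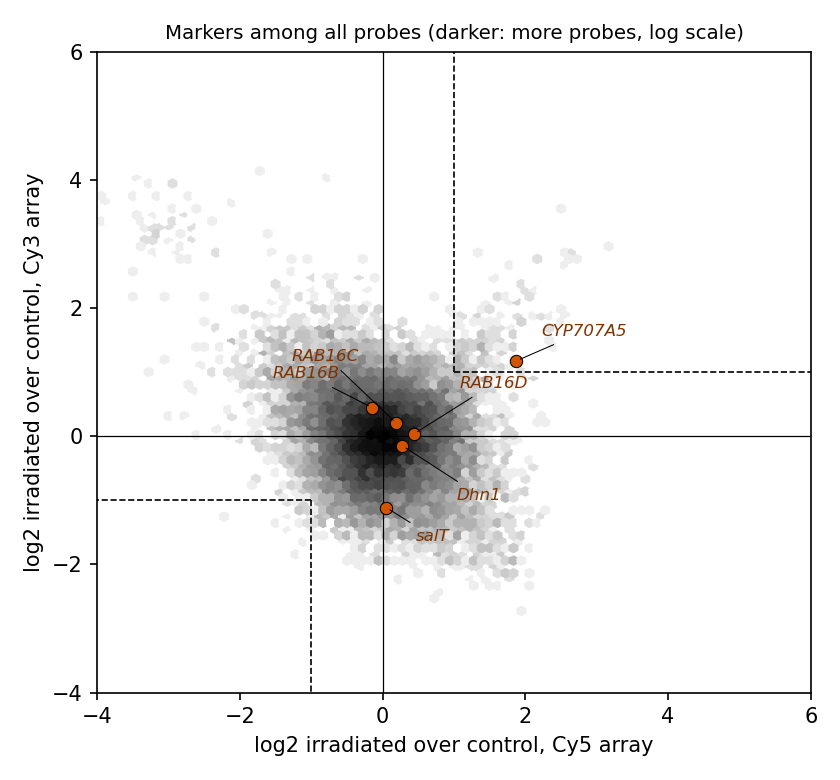
Each probe is placed by its log2 ratio of irradiated over control on the Cy5 array (horizontal) and on the Cy3 array (vertical), with darker hexagons holding more probes on a log scale; a few probes beyond the axes are not drawn. Dashed corners enclose the probes at least 2-fold higher or lower on both arrays; CYP707A5 lies in the upper corner, salT below the centre and the dehydrin genes in the dense centre.

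The order of the 6 means was CYP707A5, RAB16D, RAB16C, RAB16B, Dhn1 and salT. The gap between CYP707A5 and the next gene, RAB16D, exceeded the SD over the arrays of either, and the values of these genes on single arrays did not overlap. No gap among the dehydrin genes exceeded the larger SD of the pair. On the Cy5 array salT, at 0.05, lay above RAB16B, so the lowest place also rested on the Cy3 array. The marker median was 0.17 over the 6 probes, and 3 of the 6 had the same sign on both arrays, as 10288 of all 22574 probes did. With 1 pair of extracts, no search was made for genes of like pattern.

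Other genes of the abscisic acid pathway, taken from name lists, were set beside the markers. They gave 44 probes for 38 genes, of which 2 reached 2-fold higher and 0 reached 2-fold lower on both arrays, with a median of 0.03, and 20 of the 44 were among the dimmer 5 deciles. Over all probes 1.9% were higher, so the 2 probes are a small count and are given as values only. The lists and the markers were picked with earlier results of these data known.

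Upstream of the response, the receptor PYL11, the single receptor gene matched by name, stood at -0.50 on the Cy5 array and -0.66 on the Cy3 array. The group A phosphatases 2C, which hold the kinases inactive until receptors bind the hormone, had 4 probes with a median of 0.13. They ran from -0.27 for PP2C09 to 0.56 for PP2C30, at 0.82 and 0.31 on the arrays, and 0 of 4 passed 2-fold on both. The SnRK2 kinases, which rice names SAPK, had 12 probes for 10 genes with a median of -0.11, and 0 passed 2-fold on both arrays. SAPK6 was the highest, at 0.81 and 1.06, followed by SAPK2 at 1.11 and 0.65, and each thus fell short of 2-fold on 1 array. SAPK10 was the lowest, at -0.33 and -0.75. Of the 12 SAPK probes 6, and of the 4 phosphatase probes 2, were among the dimmer 5 deciles. Over all probes 1.9% reached 2-fold higher and 0.332% reached 2-fold lower, so counts of 0 in lists this small are given as values only. The synthesis list matched only TRAB1, through a synonym, so these names gave no probe for a gene of abscisic acid synthesis, and CYP707A5 was the single gene of breakdown.

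Transcription factors of the abscisic acid and dehydration response had 16 probes for 14 genes with a median of 0.28, and 12 of the 16 means lay above 0. Over all probes 11162 of 22574 means lay above 0. Among the 16 list probes, 7 were in the dimmer 5 deciles. NAC071, also listed as NAC5, a NAC factor induced by abscisic acid and drought in rice, was the 1 probe at least 2-fold higher, at 1.43 and 1.63, a mean of 1.53. With median centring it stood at 2.52 and 0.33 and lost the call. Its other probe, from the second dimmest decile, stood at 0.72 and -0.65, so the probes of this gene disagree. TRAB1 and BZIP23, which is also listed as ABF2, are bZIP factors that bind abscisic acid response elements. TRAB1 stood at 0.19 and 0.30 and BZIP23 at 0.69 and -0.03. VP1, the seed maturation regulator that acts with TRAB1, stood at -0.59 and -0.33. The lowest mean was that of HOX6, a homeodomain factor read by a dim probe, at 0.14 and -1.50. HOX24, another homeodomain factor, read by a probe of the dimmest decile, stood at 2.28 and 0.16, and with median centring at 1.09 and 1.42, past 2-fold on both.

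The names used for further late embryogenesis abundant genes matched 2 genes, both read by dim probes. EM, a seed protein gene that TRAB1 and VP1 are known to activate, stood at 0.62 and 0.39, and rab25 at 0.18 and -0.74. The salt and osmotic list held 9 probes for 7 genes as matched by name, with a median of -0.02. Of these, 2 probes listed as TPP2 belong to LOC4330237, whose synonym TPPII marks it as a peptidase. Without it the list held 7 probes for 6 genes with a median of -0.05, and all lists together 42 probes for 37 genes, with the same 2 probes past 2-fold. TPP1, a trehalose-phosphate phosphatase that completes trehalose synthesis, was the highest, at 2.35 and 1.43, a mean of 3.70-fold, and kept 2-fold with median centring, at 3.02 and 1.18. The related gene OsTPP2 stood at 0.78 and 0.47. BADH1, of glycine betaine synthesis, stood at 0.44 and -0.55. A probe of P5CS2, of proline synthesis, stood at -1.10 and 1.49, past 2-fold in opposite directions, with a mean of 0.19. Its other probe stood at -0.49 and -0.13, a mean of -0.31. The lowest mean was that of the sodium transporter HKT1;5, listed as HKT1.5, whose probe stood at -3.48 and 2.59 and thus followed the dye. Its recovered spot intensity was 187 on the Cy5 array and 11574 on the Cy3 array, so the trend removed from it is uncertain. With median centring it stood at -3.49 and 1.13.

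**Figure D4:**
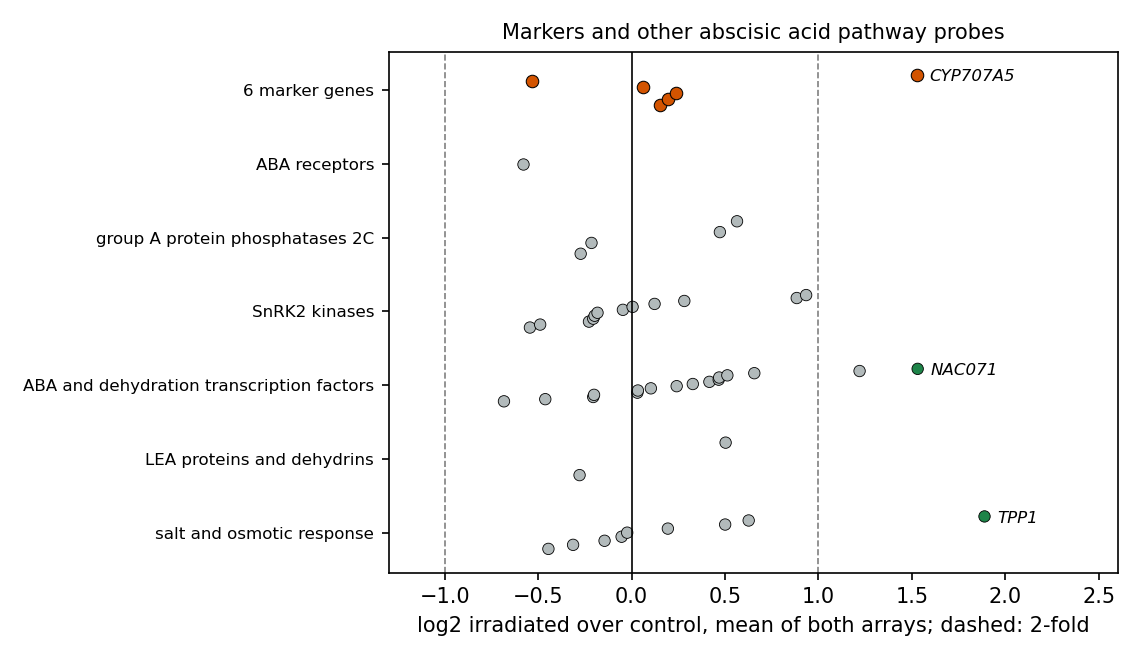
Points are probes placed by their log2 ratio of irradiated over control, as the mean of both arrays, with the 6 markers (orange) above the name lists of the pathway as matched, the peptidase probes included; green points reached 2-fold higher on both arrays, grey points did not, and dashed lines mark 2-fold. CYP707A5, NAC071 and TPP1 are the probes past 2-fold on both arrays, and the HOX24 probe, past 2-fold in its mean, is not.

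Spot brightness sets how far these values can be read. After the Cy3 array was turned, the arrays correlated at r = -0.25 over all 22574 probes, at 0.64 and 0.44 in the brightest 2 deciles and at -0.40 in the decile of CYP707A5, across probes, which are not replicates. The rank correlations were 0.34 and 0.30 in the brightest 2 deciles and 0.05 in that of CYP707A5. In decile 8, that of RAB16B, r was -0.26 and the rank correlation was 0.13. RAB16D and Dhn1 lay in the brightest decile, RAB16C and salT in decile 9, RAB16B in decile 8 and CYP707A5 in decile 7. The mean of the arrays had a robust SD over probes of 0.24 in decile 10, 0.29 in decile 9, 0.32 in decile 8 and 0.41 in decile 7. The means of RAB16B, RAB16C and Dhn1 were smaller than this SD in their own deciles, and that of RAB16D was about as large.

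The tissue was checked by spot brightness. Of 5 photosynthesis probes 4 lay in the brightest decile, but the probe numbering used here had itself been chosen partly on photosynthesis probes. Of 6 probes for seed storage proteins, markers of grain remains that could carry seed dehydrins, 5 lay among the dimmer 5 deciles, and their median ratio was 0.00. The root list had 3 probes. The silicon channel Lsi1 lay in the brightest decile, with a mean ratio of -0.14, and the silicon transporter Lsi2 in the second dimmest, with 0.18. The third, OsTIP4;1, an aquaporin gene, lay in the brightest decile and was 2-fold lower in irradiated seedlings on both arrays, at -1.10 and -1.38. On both arrays 0.332% of all probes, and 0.664% of those in the brightest decile, were at least 2-fold lower. The shares at least 2-fold higher on both arrays were 1.9% and 4.74%. The 26 housekeeping probes had a median ratio of 0.02 and ran from -0.38 to 1.91, and 2 of them were 2-fold higher on both arrays. These were rubi3, a polyubiquitin gene, at 2.15 and 1.67, a mean above that of CYP707A5, and the actin gene AC7, at 1.27 and 1.37, both in the brightest decile. The part of these genes in the marker values was not tested.

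**Figure D5:**
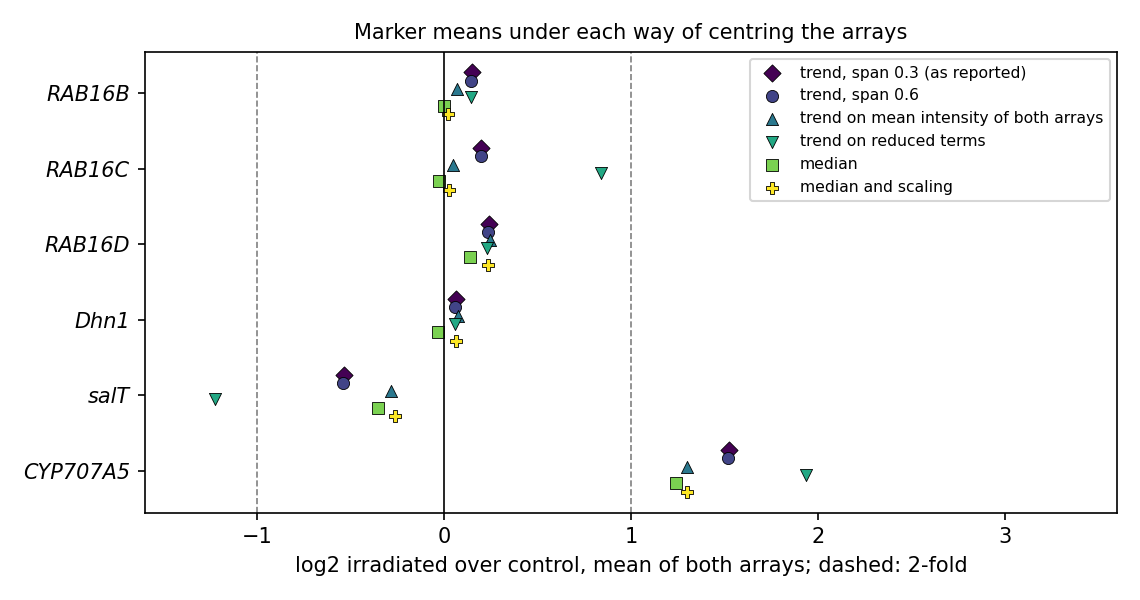
For each marker the 6 symbols give the log2 ratio of irradiated over control, as the mean of both arrays, under 6 ways of centring the arrays, and dashed lines mark 2-fold. CYP707A5 stays between 1.24 and 1.94 and salT between -1.23 and -0.26, while the means of RAB16B, RAB16C and Dhn1 reach just below 0 with median centring and that of RAB16C reaches 0.84 on reduced terms.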

How the data were processed

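TRIZOL extraction and Agilent linear amplification labelling are given by the labels. A GenePix scanner, and GeneSpring version 4 for normalization, are named in the design text. Values deposited by the authors are log10 channel ratios with medians of 0.051 and 0.20, so they were treated as not normalized; the sources used here give neither background handling nor the numerator. The unit was inferred: as log10 ratios, the simplest fractions within the 9 printed decimals had median denominators of 163 (array with irradiated RNA in Cy5) and 166 (in Cy3), against 26699 and 22620 once values were shifted slightly at random.

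Spot intensity was rebuilt from these terms, with common factors up to 59 put back. In simulated arrays of 22574 probes 66.9% and 66.4% came within 0.3 log10 units. The simulation took rebuilt intensities as true, so these shares do not measure the precision for the real spots. Each array was centred on its lowess trend over intensity (statsmodels 0.14.6, span 0.3, 3 iterations), the array with irradiated RNA in Cy3 was negated, and values were taken to log2. Probes were numbered column by column over a 105 by 215 grid, starting at the far corner, a numbering recovered from these values earlier, and 17839 probes with 1 gene were matched to RefSeq. A probe was called when past 2-fold in 1 direction on both arrays. The markers, all named with every probe, and the lists, of which the called, highest and lowest probes were named, were chosen with earlier results of these data known; other probes of named genes and those that bear on a list's reading were added. The 1 pair of extracts and the 2 arrays limit the precision. Alternatives were other centrings, intensities, folds, single arrays, readings of the ratio and the numbering as listed.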

Additional observations from a re-analysis of the deposited data

How the results depend on the processing

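The 1 marker at least 2-fold higher became 0 with median centring, with or without scaling, at 3-fold, with Cy3 over Cy5, with both columns read as irradiated over control, and with platform numbers as listed. The 0 lower markers became 1 on the Cy3 array alone (salT) and 1 with Cy3 over Cy5, where CYP707A5 turned to -1.53. The 2 higher and 0 lower pathway probes became 6 and 3 on the Cy5 array alone, 8 and 2 on the Cy3 array alone, 0 and 2 with Cy3 over Cy5, and 1 and 3 with both columns read as irradiated over control. The 2 higher ones became 4 at 1.5-fold, 0 at 3-fold and 1 with platform numbers as listed.

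Over all probes the 429 higher and 75 lower became 257 and 27 when arrays were centred on medians, 251 and 28 when they were also scaled, 1871 and 1705 on the Cy5 array alone, 2230 and 1819 on the Cy3 array alone, 708 and 296 when only their mean had to pass, 75 and 429 with Cy3 over Cy5, 910 and 479 at 1.5-fold, and 186 and 6 at 3-fold. With both columns read as irradiated over control 454 were higher and 702 lower. The wider span, reduced terms and the mean intensity of both arrays, the last chosen after the data were seen, left all 6 counts within 1.5 times, and leaving the peptidase gene out of the lists, also chosen then, kept 2 and 0. Of 60 marker means under alternatives, 18 changed sign: all 6 with Cy3 over Cy5, 3 each with median centring (RAB16B, RAB16C and Dhn1), with both columns read as irradiated over control and with platform numbers as listed, 2 on the Cy5 array alone and 1 on the Cy3 array alone. CYP707A5, the called marker, turned only with Cy3 over Cy5. No paired analysis was possible because there was 1 replicate per group. The cause of these shifts was not tested.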

Other observations

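Factors put back into the recovered fractions mattered for 3 of the markers. The spot of RAB16C gave 75 over 41 on the Cy5 array and 1207 over 449 on the Cy3 array. With the terms used as they stood, RAB16C was 1.49 on the Cy5 array and 0.19 on the Cy3 array. The spot of salT gave 262 over 53 on the Cy3 array, and as it stood salT was 0.06 on the Cy5 array and -2.51 on the Cy3 array. The spot of CYP707A5 gave 218 over 49 on the Cy5 array, and as it stood CYP707A5 was 2.72 on the Cy5 array and 1.15 on the Cy3 array, a mean of 1.94. When each array's trend was read at the mean intensity of both arrays, RAB16C was -0.01 and 0.11, salT 0.22 and -0.78, and CYP707A5 1.58 and 1.02.

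After RAB21 in gene order, the nearest genes with a listed probe were LOC4350455 and LOC4350456. LOC4350455 stood at 0.36 on the Cy5 array and -0.37 on the Cy3 array, and LOC4350456 at -0.25 and 0.09.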
